A study of Mus musculus with 8 samples.

Results

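The neurofilament and axon growth genes are 8 genes of the neuronal cytoskeleton and growth cone, Nefl, Nefm, Nefh, Prph, Ina, Gap43, Stmn2 and Tubb3, taken by symbol from the 47517 symbols of each count table. Neurofilaments are the intermediate filaments of axons. They assemble from a light, a medium and a heavy chain together with internexin or peripherin, and they set the calibre of myelinated axons. In the inner ear they fill the neurons of the cochlear and vestibular ganglia and their fibres, and peripherin marks the sparse afferents that reach outer hair cells. Growth cones depend instead on the membrane protein GAP-43 and the microtubule regulator stathmin-2, and both are highest while axons extend.

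RNA of the whole inner ear at postnatal day 14 was measured in 4 libraries of heterozygous mutant mice, whose Thra gene carries a frameshift that alters the thyroid hormone receptor TRα1, and in 4 libraries of their wild-type littermates, with no treatment in either genotype. Replicates 2 and 3 of either genotype have 2 numbers in the title and replicates 1 and 4 have 1 number, called the title form here. The meaning of these numbers is not stated, nor is the number of animals or the litter behind a sample, so the spread that p-values measure may be partly technical. Total counts ranged from 18930841 to 23064578 per library, and 3 counts, taken as the floor, came to 0.132 to 0.159 CPM per library, where CPM divides counts by the normalized library size. Such floors cover counting error only.

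Several features of whole libraries touch the results below. The Y-linked gene Eif2s3y had 530 counts in mutant replicate 3, 545 in wild-type replicate 2 and 520 in wild-type replicate 3, all with 2 numbers in the title, against 0 in mutant replicate 2 and at most 2 in the libraries with 1 number. Xist was present in every library at 3622 to 10682 counts. Beyond those 2 counts, Y-linked RNA thus came only with 2 numbers in the title, so sex and title form are partly confounded. Mutant replicate 4 held 2020.8 CPM of the choroid plexus gene Ttr, against 5.76 to 32.5 CPM elsewhere, and wild-type replicate 2 held the most haemoglobin RNA, 4.88% of its counts. The hair cell genes Myo6 (122 to 156 CPM) and Myo7a (81.7 to 107 CPM) and the ganglion neuron genes Calb2 (343 to 597 CPM) and Pvalb (126 to 166 CPM) were present in all 8 libraries, as the label of inner ear requires. Counts per gene do not show a frameshift, so they give no check of the genotype labels.

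All 8 genes were found in the GENCODE annotation of GRCm38. Nefl (chr14:68083863-68089095, plus strand), which encodes the light chain, lies inside the span of Nefm (chr14:68082590-68124846, minus strand), which encodes the medium chain. A Nefm transcript has an exon over 1108 bases of the exons of Nefl on the opposite strand, 32.8% of the exonic length of Nefl. Whether the counting used strand is not given in the sources used here, so reads from these bases cannot be assigned with certainty. Ina (chr19:47014698-47025327) shares 456 exonic bases, 14.1% of its exons, with Nt5c2 on the other strand. The exons of Nefh (chr11:4938754-4948064), Prph (chr15:99055174-99058978), Gap43 (chr16:42248442-42340651), Stmn2 (chr3:8509360-8561606) and Tubb3 (chr8:123411424-123422015) overlapped no other annotated exon. Although Tubb3 belongs to a family of similar tubulins, 0 of its 1867 stretches of 75 bases recur in a transcript of another gene.

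The promoters of Ina and Prph are shown because Ina followed the neurofilament chains across libraries while Prph did not (below). Whether these sequences bear on that pattern was not tested. RefSeq windows (GRCm38.p6) were matched for 3 of the 8 genes, each given as the 250 bases before the RefSeq start of transcription, 5′ to 3′ on the plus strand. That start can differ from the GENCODE start used above. The window of Prph (chr15:99054924-99055173) ends at its GENCODE start, that of Ina (chr19:47014431-47014680) ends 17 bases before it, and that of Tubb3 reaches 129 bases into the gene as GENCODE has it and is not shown. Capitals mark matches on either strand to GGGCGG, to TATAAA or to AGGTCA, the core hexamer bound by thyroid hormone receptors.
Ina: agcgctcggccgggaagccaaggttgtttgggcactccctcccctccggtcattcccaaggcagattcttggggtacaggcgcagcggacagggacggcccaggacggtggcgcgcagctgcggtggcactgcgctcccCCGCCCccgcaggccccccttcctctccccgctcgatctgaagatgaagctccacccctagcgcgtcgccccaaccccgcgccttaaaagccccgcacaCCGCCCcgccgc
Prph: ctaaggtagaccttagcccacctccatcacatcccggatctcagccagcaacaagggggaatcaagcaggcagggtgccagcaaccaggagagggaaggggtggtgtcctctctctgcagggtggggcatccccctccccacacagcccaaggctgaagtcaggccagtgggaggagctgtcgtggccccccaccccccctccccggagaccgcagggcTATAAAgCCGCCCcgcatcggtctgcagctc
GGGCGG was found 2 times in the Ina window and 1 time in the Prph window, and 32.7% of all 32851 windows of this length hold it. TATAAA was found in the Prph window, and 12.4% of all windows hold it. AGGTCA was found in 0 of both windows, against 14.0% of all windows, which says only that these letters are not in these bases.

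Between genes, levels were compared per kilobase of exon. The 3 neurofilament chains stood far above the other genes, and the growth cone gene Gap43 was lowest. Nefm averaged 383 ± 97.1 CPM per kilobase in mutant and 365 ± 80.5 in wild-type libraries (SD, n = 4 each). Nefl averaged 345 ± 83.4 in mutant and 323 ± 67.5 in wild-type libraries, and Nefh averaged 311 ± 82.8 in mutant and 309.9 ± 70.8 CPM per kilobase in wild-type libraries. These 3 levels lay within 1 SD of each other, but the length of Nefm, 5782 bases, joins the exons of its 2 transcripts. By the transcript without the exon inside Nefl, Nefm stood at 664 ± 168 in mutant and 633 ± 139.7 CPM per kilobase in wild-type libraries. By the transcript with that exon, Nefm stood at 602 ± 153 in mutant and 573 ± 127 in wild-type libraries. By either transcript Nefm lay above Nefl and Nefh by more than the SD of each. Nefl was divided by its full exonic length, of which 32.8% overlaps Nefm on the other strand. Its distance from Nefm therefore depends on the strand setting of the counting, which is not given. Below the 3 chains each neighbour down to Stmn2 differed from the next by more than the SD of either. Tubb3, the neuron-enriched β-tubulin, stood at 74.2 ± 17.3 CPM per kilobase in mutant and 78.4 ± 17.7 in wild-type libraries. Ina (46.7 ± 14.3 in mutant, 44.7 ± 9.37 in wild-type) and Stmn2 (26.0 ± 3.63 in mutant, 23.6 ± 4.39 in wild-type) came next. Prph (7.73 ± 8.28 in mutant, 12.2 ± 12.7 in wild-type) and Gap43 (5.89 ± 1.10 in mutant, 3.95 ± 0.979 in wild-type) did not differ from each other beyond the spread of Prph, which in wild-type libraries also reached Stmn2.

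Within a library the neurofilament chains kept nearly fixed proportions. The count ratio of Nefm to Nefl lay between 1.84 and 2.003 over all 8 libraries, and that of Nefh to Nefl between 0.984 and 1.24. The ratio of Ina to Nefl varied 1.40-fold, that of Tubb3 to Nefl 1.44-fold and that of Stmn2 to Nefl 1.51-fold. Gap43 was looser, at a 2.74-fold range relative to Nefl. Prph stood apart, since its ratio to Nefl ran from 0.00140 in wild-type replicate 4 to 0.0439 in wild-type replicate 1, a 31.4-fold range.

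**Figure D1:**
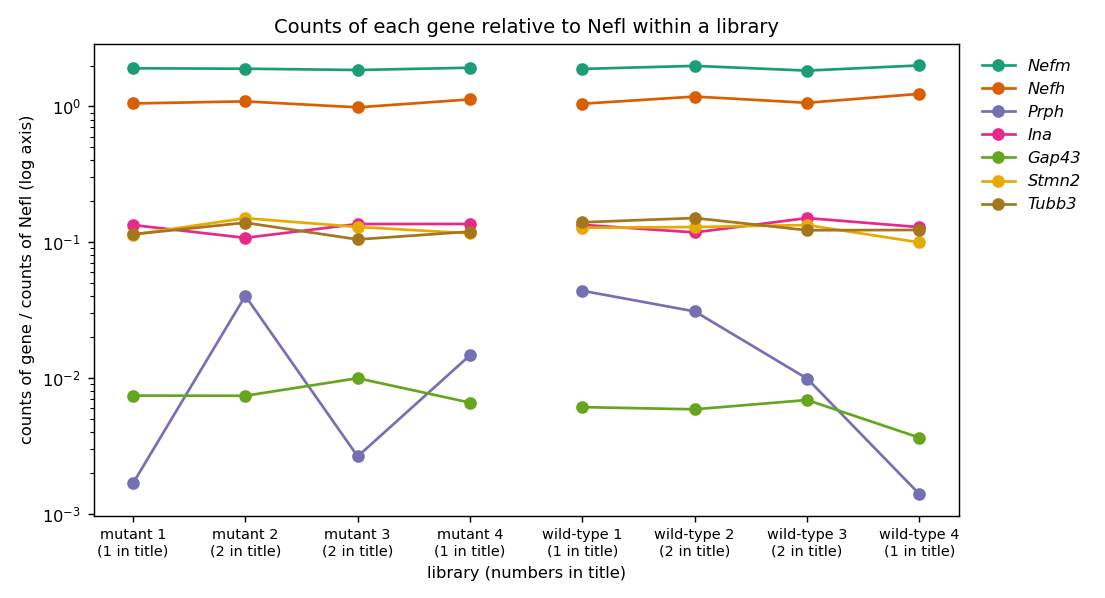
Counts of each gene divided by the counts of Nefl in the same library (y, log axis) for mutant and wild-type replicates 1 to 4 (x, with the numbers in the title). Nefm and Nefh run flat, at 1.84 to 2.003 and 0.984 to 1.24, while Prph moves over a 31.4-fold range.

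The first comparison asked whether the mutation of TRα1, a receptor through which thyroid hormone acts on the maturing inner ear, changed these genes. The neurofilament chains were at like levels in both genotypes. Nefl stood at 1464, 918, 932 and 1348 CPM in mutant replicates 1 to 4, against 1322, 936, 860.0 and 1251 CPM in wild-type replicates 1 to 4. Nefm stood at 2795, 1739.8, 1728 and 2597 CPM in mutant replicates 1 to 4, against 2497, 1861, 1578 and 2505 CPM in wild-type replicates 1 to 4. Nefh, whose long phosphorylated tail spaces the filaments, stood at 1539, 1000.3, 918 and 1518 CPM in mutant replicates 1 to 4, against 1384, 1106, 914 and 1548 CPM in wild-type replicates 1 to 4. In all 3 genes the genotypes overlapped, and replicates 2 and 3 were the lowest of each genotype.

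The log2 fold change (mutant over wild-type) was 0.094 for Nefl (SE 0.21, 95% interval -0.38 to 0.57), 0.070 for Nefm (SE 0.22, -0.43 to 0.57) and 0.0069 for Nefh (SE 0.23, -0.51 to 0.52). Ina, which encodes α-internexin, stood at 196, 98.9, 127 and 184 CPM in mutant replicates 1 to 4, against 178, 111, 129.6 and 162 CPM in wild-type replicates 1 to 4, a log2 fold change of 0.064 (SE 0.24, 95% interval -0.48 to 0.60). Tubb3 stood at 168, 128, 97.8 and 161 CPM in mutant replicates 1 to 4, against 185, 141, 105 and 154 CPM in wild-type replicates 1 to 4, a log2 fold change of -0.079 (SE 0.21, 95% interval -0.56 to 0.40). Ina and Tubb3 thus repeated the order of the neurofilaments, with replicates 2 and 3 lowest in each genotype. The signs of Nefl, Nefm, Nefh, Ina and Tubb3 turned when single libraries were left out, so no direction is given for them.

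Gap43, which promotes the growth and sprouting of axons, had the smallest p of the 8. It stood at 10.9, 6.81, 9.30 and 8.89 CPM in mutant replicates 1 to 4, against 8.08, 5.51, 5.93 and 4.55 CPM in wild-type replicates 1 to 4. The means were 8.97 ± 1.68 CPM in mutant and 6.02 ± 1.49 CPM in wild-type libraries (SD, n = 4 each), but wild-type replicate 1 lay above mutant replicate 2, so the genotypes overlapped. Its log2 fold change of 0.58 (SE 0.21, 95% interval 0.10 to 1.05) had an unadjusted p of 0.0226 and an adjusted p of 0.924 over all genes in edgeR, and so did not pass (adjusted p of 0.170 or above in each of its alternatives). Between genotypes within a title form the difference was 0.70 among libraries with 1 number and 0.48 among those with 2. The count ratio of Nefh to Gap43, a mature over a growth-phase gene, was 141, 147, 98.6 and 171 in mutant replicates 1 to 4, against 171, 201, 154 and 339.9 in wild-type replicates 1 to 4. The genotypes overlapped in this ratio, which uses the same counts of Gap43 and had no test of its own. Stmn2 stood at 167, 138, 121 and 157 CPM in mutant replicates 1 to 4, against 169, 121, 115 and 125 CPM in wild-type replicates 1 to 4, a log2 fold change of 0.14 (SE 0.15, 95% interval -0.20 to 0.47).

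Prph, which encodes peripherin, varied more within each genotype than between them. It stood at 2.46, 37.0, 2.47 and 19.8 CPM in mutant replicates 1 to 4, against 58.1, 29.0, 8.53 and 1.75 CPM in wild-type replicates 1 to 4. High and low libraries occurred in both genotypes and in both title forms. The log2 fold change of -0.66 (SE 1.23, 95% interval -3.58 to 2.27) therefore leaves even a several-fold difference undetectable in this design, and its sign turned without wild-type replicate 1 (0.25).

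**Figure D2:**
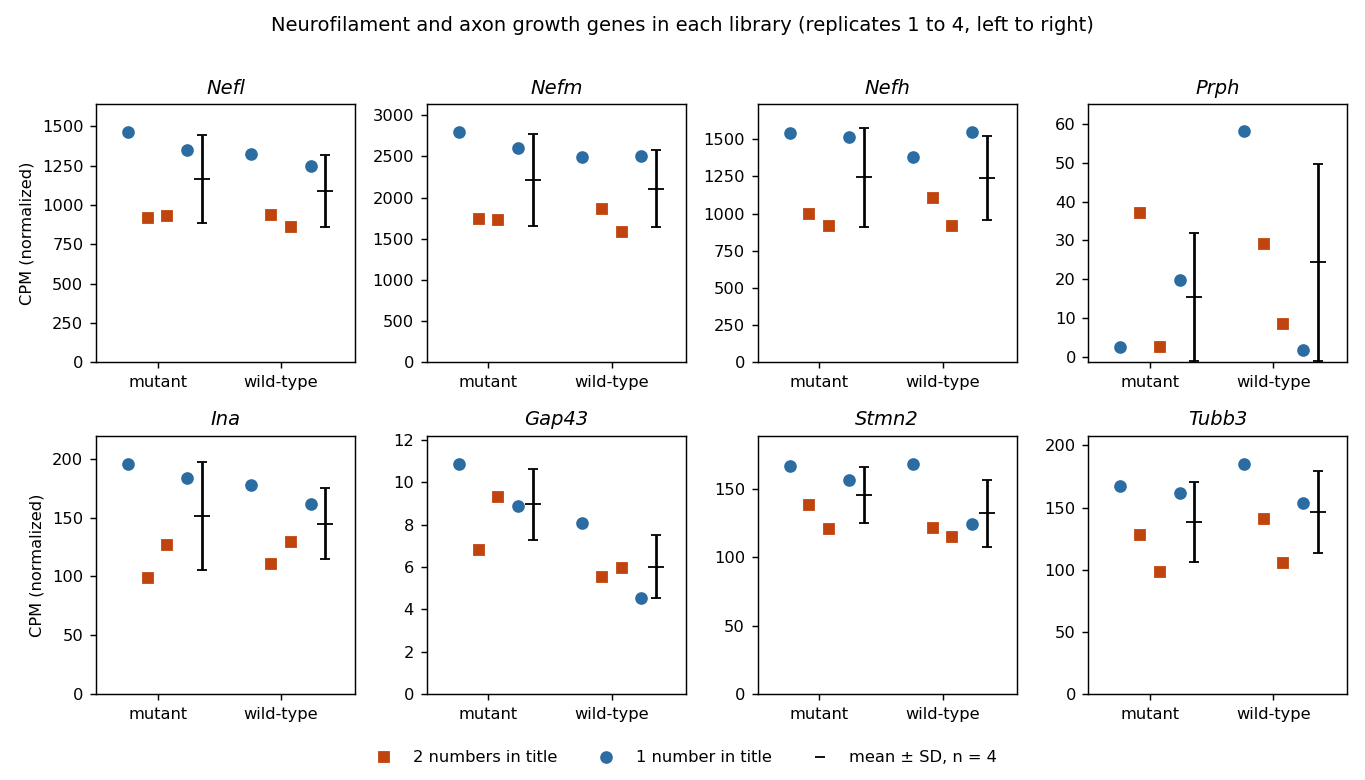
Normalized CPM (y) of each gene in the 4 mutant and 4 wild-type libraries (x, replicates 1 to 4 from left to right within a genotype), with the mean and SD in black (n = 4) and the title form by colour. In Nefl, Nefm, Nefh, Ina and Tubb3 the libraries with 2 numbers in the title lie below those with 1 number in both genotypes, whereas Prph follows neither.

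By edgeR's quasi-likelihood test with Benjamini-Hochberg adjustment, 0 of the 8 genes passed an adjusted p under 0.05 between genotypes, against 0.0421% of the 21392 genes tested (0.00467% higher and 0.0374% lower). Gap43 alone had an unadjusted p under 0.05, against 5.3% of all genes, and DESeq2 likewise called 0 of the 8. In all 8 genes the genotypes overlapped, while 2.69% of all genes showed no overlap (1.28% with mutant libraries higher and 1.41% with mutant libraries lower). The median log2 fold change of the 8 genes was 0.067, against -0.0061 over all genes.

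Wider lists of axon genes gave 0 calls between genotypes as well, in edgeR and in DESeq2. Of 22 genes of the axon cytoskeleton and transport 0 had an unadjusted p under 0.05 (median log2 fold change 0.016). The smallest p belonged to the tubulin Tubb2b (0.37, SE 0.19, adjusted p = 0.927) and the spectrin Sptbn4 (-0.18, SE 0.13, adjusted p = 0.978). Of 20 genes of axon growth and adhesion 3 had an unadjusted p under 0.05 (median 0.20), led by the semaphorin receptor Nrp1 (0.33, SE 0.095, adjusted p = 0.907) and the adhesion molecule Chl1 (0.47, SE 0.16, adjusted p = 0.907). Of 10 tested genes of axon injury and regeneration 1 did (median 0.060), the stress gene Gadd45a (-0.60, SE 0.24, adjusted p = 0.924), and the transcription factor Sox11 came next (0.37, SE 0.18, adjusted p = 0.924). The sums of pan-neuronal genes overlapped between genotypes, at 1478 to 2549 CPM in mutant and 1642 to 2428 CPM in wild-type libraries. Oligodendrocyte genes had positive log2 fold changes in 10 of 10 cases (median 0.37) and summed to 5657 to 7964 CPM in mutant and 3498 to 7027 CPM in wild-type libraries, with 0 called. Choroid plexus genes were positive in 8 of 9 cases (median 0.48) and erythroid genes negative in 7 of 7 (median -0.95), again with 0 called. At an unadjusted p under 0.05 in edgeR stood 1 oligodendrocyte, 1 choroid plexus and 0 erythroid genes. Choroid plexus sums were 72.6 to 2175 CPM in mutant, highest in replicate 4, and 84.4 to 102 CPM in wild-type libraries. Erythroid sums were 7707 to 19108 CPM in mutant and 12936 to 50056 CPM in wild-type libraries, highest in wild-type replicate 2. The part of these tissues in the genotype values, those of Gap43 included, was not tested. Sprr1a and Gal of the injury list did not pass the filter on low counts.

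The second comparison set the 4 libraries with 2 numbers in the title against the 4 with 1 number, with genotype in the fit. The 3 neurofilament chains, Ina and Tubb3 were lower with 2 numbers, by 29.4% to 35.1%. Nefl averaged 912 ± 35.3 CPM with 2 numbers and 1346 ± 88.9 CPM with 1 number (SD, n = 4 each). Its log2 fold change was -0.56 (SE 0.071, 95% interval -0.73 to -0.40, edgeR adjusted p = 0.00876). Nefm averaged 1727 ± 116 CPM with 2 numbers and 2599 ± 139 CPM with 1 number (log2 fold change -0.59, SE 0.082, adjusted p = 0.0103). Nefh averaged 984 ± 90.3 CPM with 2 numbers and 1497 ± 76.7 CPM with 1 number (-0.61, SE 0.091, adjusted p = 0.0127). The 3 chains fell by similar factors, at 32.2% for Nefl, 33.5% for Nefm and 34.3% for Nefh.

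Ina averaged 117 ± 14.4 CPM with 2 numbers and 179.8 ± 14.4 CPM with 1 number (log2 fold change -0.62, SE 0.11, edgeR adjusted p = 0.0176). Tubb3 averaged 118 ± 19.99 CPM with 2 numbers and 167 ± 13.4 CPM with 1 number (-0.50, SE 0.12, adjusted p = 0.0476). In these 5 genes each library with 2 numbers lay below each library with 1 number. The difference was negative within each genotype (log2, 2 against 2 libraries, no test). In mutant libraries it was -0.60 for Nefl, -0.64 for Nefm, -0.67 for Nefh, -0.76 for Ina and -0.56 for Tubb3. In wild-type libraries it was -0.52 for Nefl, -0.55 for Nefm, -0.54 for Nefh, -0.50 for Ina and -0.47 for Tubb3.

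The growth cone genes and Prph did not pass. Stmn2 averaged 124 ± 9.94 CPM with 2 numbers and 154 ± 20.4 CPM with 1 number (SD, n = 4 each). Its log2 fold change of -0.32 (SE 0.10) had an adjusted p of 0.0912 in edgeR, and DESeq2 called it lower (adjusted p = 0.0302, with 0.0302 to 0.252 over all its alternatives). Wild-type replicate 4, with 1 number, stood below mutant replicate 2, with 2 numbers, so its title forms overlapped. Gap43 averaged 6.89 ± 1.70 CPM with 2 numbers and 8.10 ± 2.64 CPM with 1 number (log2 fold change -0.22, SE 0.20, 95% interval -0.68 to 0.24, adjusted p = 0.523). Prph averaged 19.3 ± 16.4 CPM with 2 numbers and 20.5 ± 26.4 CPM with 1 number (0.071, SE 1.38, 95% interval -3.34 to 3.49, adjusted p = 0.981), a sign that turned in several alternatives.

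**Figure D3:**
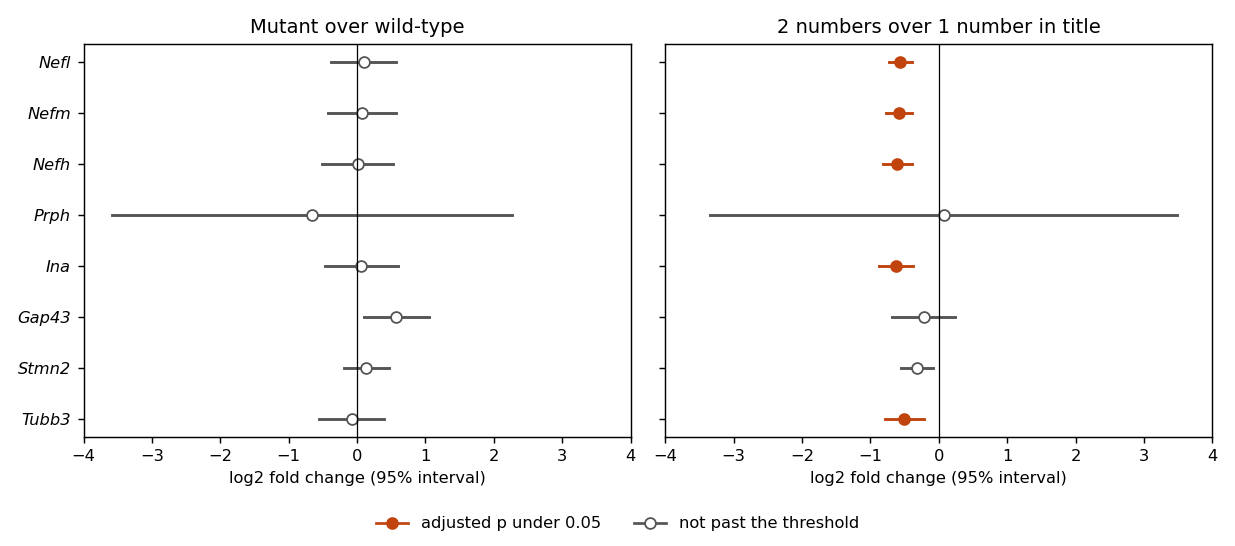
Log2 fold change (x, point) with its 95% interval (line) for each of the 8 genes (y), mutant over wild-type on the left and 2 numbers over 1 number in the title on the right, from edgeR with n = 4 against 4 libraries. Filled points had an adjusted p under 0.05, which were 0 genes on the left and Nefl, Nefm, Nefh, Ina and Tubb3 on the right.

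Thus 5 of the 8 genes were called lower with 2 numbers in the title, against 2.9% of the 21392 genes tested, and 0 were called higher, against 6.49% (9.39% in either direction). With Stmn2, 6 of the 8 had an unadjusted p under 0.05, against 26.9% of all genes. Over all genes 1388 were higher and 620 lower, a split that became 1643 and 267 when libraries were scaled by total counts alone. In 5 of the 8 genes the libraries with 2 numbers all lay lower, without overlap, against 7.9% of all genes, and in 0 of the 8 they all lay higher, against 11.6% (19.5% in either direction). The median log2 fold change of the 8 genes was -0.53, against -0.0067 over all genes. The number of genes called fell to 3 without mutant replicate 4 (Nefl, Nefm and Nefh), without wild-type replicate 1 (Nefl, Nefm and Nefh) or without wild-type replicate 4 (Nefl, Nefm and Ina). Without mutant replicate 1 it fell to 1 (Nefl), although Nefm, Nefh, Ina and Tubb3 then had log2 fold changes of -0.56, -0.59, -0.58 and -0.48. Tubb3 lost its call in each such repeat but the one without wild-type replicate 2.

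Of other neuronal lists, some genes were called lower with 2 numbers, where 2.9% of all genes were. All 13 pan-neuronal genes had a negative log2 fold change (median -0.37) and 4 of them fell, among them the neuronal enolase Eno2 (-0.52, SE 0.067, edgeR adjusted p = 0.00914), Rtn1 of the endoplasmic reticulum (-0.42, SE 0.083, adjusted p = 0.0261) and the synuclein Sncb (-0.52, SE 0.11, adjusted p = 0.0356). Of 17 genes of cochlear and vestibular ganglion neurons 3 fell (median -0.24), the vesicular glutamate transporter Slc17a7 (-0.55, SE 0.081, adjusted p = 0.0122), the calcium buffer Calb2 (-0.37, SE 0.076, adjusted p = 0.0282) and the vesicle calcium sensor Syt2 (-0.40, SE 0.092, adjusted p = 0.0406). Of the axon cytoskeleton and transport list 2 of 22 fell (median -0.21), the microtubule stabilizer Map6 (-0.33, SE 0.054, adjusted p = 0.0169) and the dynein subunit Dync1i1 (-0.22, SE 0.046, adjusted p = 0.0314). DESeq2 called 5 pan-neuronal, 5 ganglion and 7 axon cytoskeleton genes lower. Brain neuron and astrocyte genes had positive log2 fold changes in 8 of 9 cases (median 0.40), and 0 of them were called in edgeR or DESeq2 (1 at an unadjusted p under 0.05 in edgeR).

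Of 20 genes of axon growth and adhesion 0 fell and 1 rose (median -0.074), shares near those over all genes (2.9% lower and 6.49% higher). The gene that rose was the netrin receptor Dcc, at 14.0 ± 0.512 CPM with 2 numbers and 8.63 ± 0.826 CPM with 1 number (SD, n = 4 each). Its log2 fold change was 0.69 (SE 0.095, edgeR adjusted p = 0.00995). Of 10 tested genes of axon injury and regeneration 0 passed in edgeR or DESeq2 (median -0.079). Jun (-0.35, SE 0.11, adjusted p = 0.0835) was the 1 gene of that list with an unadjusted p under 0.05, and Sox11 (0.25, SE 0.15, adjusted p = 0.346) came next.

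**Figure D4:**
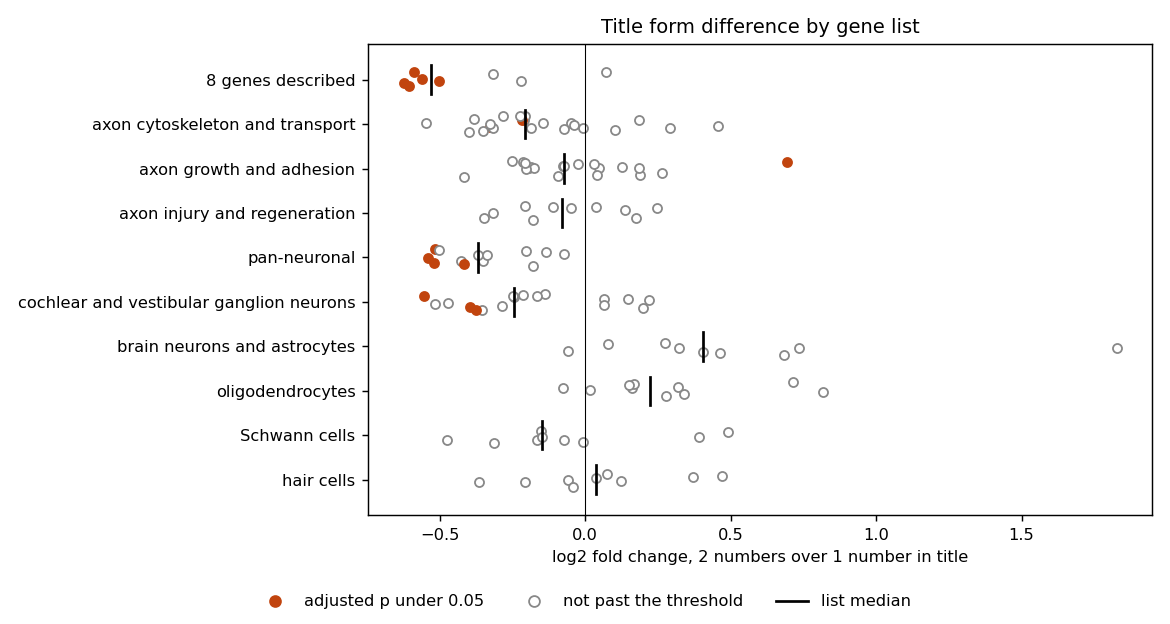
Log2 fold change of 2 numbers over 1 number in the title (x) for each tested gene (points) of 10 lists (y), with the list median as a bar and points filled where the adjusted p was under 0.05. Of the lists plotted, the 8 genes described here have the lowest median (-0.53), followed by the pan-neuronal list (-0.37). Choroid plexus genes, which are not plotted, had a lower median (-0.60).

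In bulk tissue, fewer cells of a type and less RNA per cell cannot be told apart. Summed over the 13 pan-neuronal genes, libraries with 2 numbers held 1478 to 2206 CPM and those with 1 number 2302 to 2549 CPM, without overlap. The 17 ganglion genes summed to 1252 to 1519.9 CPM with 2 numbers and 1611 to 1771 CPM with 1 number. Hair cell genes (303 to 369 CPM with 2 numbers, 299.98 to 339 CPM with 1 number) and Schwann cell genes (3700.3 to 6190.0 CPM with 2 numbers, 4452 to 7265 CPM with 1 number) overlapped between title forms, with 0 of 9 genes called in either list by edgeR or DESeq2. Oligodendrocyte genes, present in every library, summed to 5342 to 7196 CPM with 2 numbers and 3498 to 7964 CPM with 1 number, and bone genes to 8952 to 22618 CPM with 2 numbers and 17163 to 18343 CPM with 1 number. Oligodendrocyte genes had positive log2 fold changes in 9 of 10 cases (median 0.22). Brain neuron and astrocyte genes, whose median is given above, summed to 338 to 427 CPM with 2 numbers and 251 to 447 CPM with 1 number. Choroid plexus genes had a median log2 fold change of -0.60, with 1 of 9 called lower (Sostdc1) and most of their RNA in mutant replicate 4, and erythroid genes one of -0.061. The part of any of these tissues, of the Y-linked RNA or of the number of animals in the title form difference was not tested.

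The ratio of neurofilament to pan-neuronal RNA differed between libraries. The 3 chains summed to 3658 CPM in mutant replicate 2, beside a pan-neuronal sum of 2093 CPM (ratio 1.75), and to 3902 CPM in wild-type replicate 2, beside 2206 CPM (ratio 1.77). They summed to 3578 CPM in mutant replicate 3, beside 1478 CPM (ratio 2.42), and to 3352 CPM in wild-type replicate 3, beside 1642 CPM (ratio 2.04). In the 4 libraries with 1 number the ratio lay between 2.14 and 2.52. The ratio was thus lowest in replicate 2 of each genotype, while replicate 3 of each genotype had the lowest sums of both kinds.

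Whether the genotype difference itself differed between title forms was tested with an interaction term. By edgeR 0 of the 8 genes passed and 0 had an unadjusted p under 0.05, against 0.074% (0.0479% higher, 0.0261% lower) and 1.35% of 22979 genes, and DESeq2 called 0 of the 8. The interaction was -0.085 for Nefl (SE 0.16, 95% interval -0.46 to 0.30) and -0.25 for Ina (SE 0.21, -0.77 to 0.26). For Prph it was 1.52 (SE 2.90, 95% interval -6.05 to 9.09), an interval too wide to bound the difference.

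Because Prph followed neither comparison, its pattern was set beside that of other genes, a choice made after its values were seen. Among 19375 genes at a mean of at least 1 CPM, those with the highest Pearson r over the 8 libraries included Tusc5 (r = 0.986), Lix1 (0.979) and P2rx3, an ATP-gated channel of sensory neurons (0.976). These values were picked as the highest of many, over 8 libraries that differ in tissue content, and carry no test. P2rx3 stood at 4.96, 15.3, 4.65 and 9.53 CPM in mutant replicates 1 to 4, against 21.1, 12.7, 6.55 and 4.65 CPM in wild-type replicates 1 to 4. Tusc5 stood at 1.98, 15.2, 1.31 and 7.57 CPM in mutant replicates 1 to 4, against 16.3, 11.0, 3.59 and 1.66 CPM in wild-type replicates 1 to 4. Both were highest in the libraries in which Prph was highest, wild-type replicates 1 and 2 and mutant replicates 2 and 4.

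Markers of autonomic neurons, in which peripherin is also abundant, were low throughout. Of 8 such genes Slc18a3 had 0 counts in every library, and Dbh, Hand2 and Chat reached at most 5, 3 and 7 counts in any library. The 8 genes summed to 2.18 to 10.48 CPM with 2 numbers in the title and 6.39 to 10.54 CPM with 1 number. By library they summed to 7.02, 10.48, 2.18 and 9.16 CPM in mutant replicates 1 to 4. In wild-type replicates 1 to 4 the sums were 10.54, 8.51, 3.02 and 6.39 CPM. The highest sums thus lay in mutant replicates 2 and 4 and wild-type replicates 1 and 2, in which Prph was highest as well. The part of such neurons in the level of Prph was not tested.

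**Figure D5:**
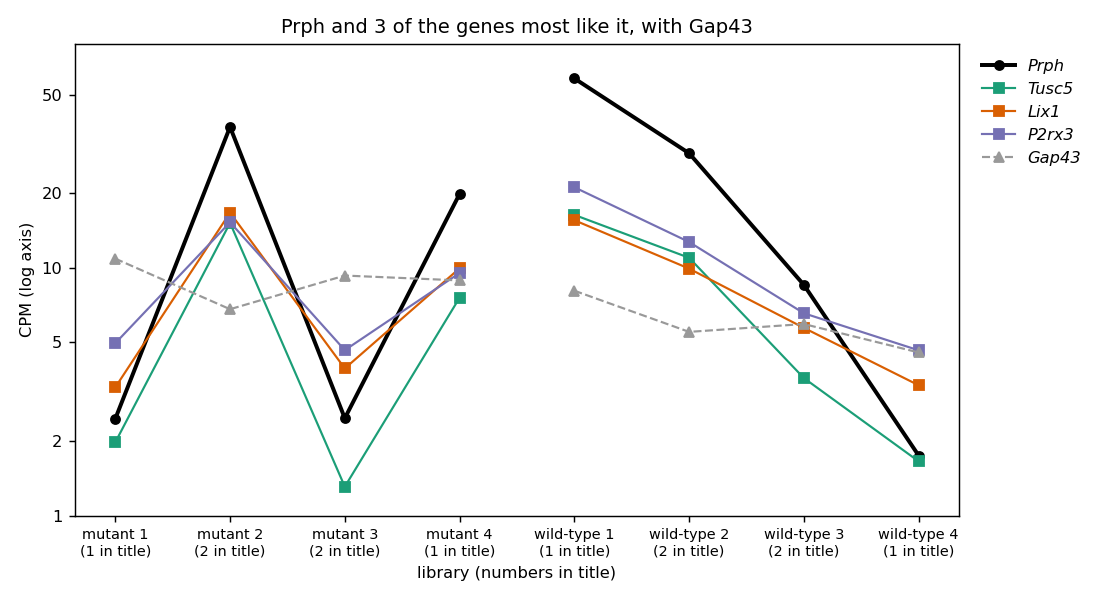
CPM (y, log axis) of Prph, of 3 of the genes most like it and of Gap43 in mutant and wild-type replicates 1 to 4 (x, with the numbers in the title). Prph, at 1.75 to 58.1 CPM, and these 3 genes peak in mutant replicate 2 and wild-type replicate 1, while Gap43 stays between 4.55 and 10.9 CPM.

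By the rule set for the 8 genes as a whole, the genes most like the mean of their centred log2 CPM among 14997 at a mean of at least 5 CPM were Sema4f (r = 0.977), Mapk3 (0.967), Panx1 (0.963), Slitrk3 (0.957), Atg13 (0.951) and Pdpk1 (0.948), again over 8 libraries and without a test. Since Prph has by far the widest range, it weighs most in that mean. Sema4f, a semaphorin, was highest in wild-type replicate 1 (8.55 CPM) and lowest in mutant replicate 3 (3.63 CPM).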

How the data were processed

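The authors deposited 1 table of counts per library, whole numbers per gene symbol that were not normalized. The submitters' processing notes name FastQC, STAR, HTSeq and mm10, with no version. Per the labels' protocols, a total RNA kit with unique molecular identifiers was used. The use of these identifiers, which bears on duplicate reads, and the annotation and strand setting, which bear on overlapping genes, are open (not given in the sources used here). Coordinates and exon lengths are those of GENCODE M21 (GRCm38), which holds 45236 of the 47517 symbols.

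The deposited counts were fitted in edgeR 4.0.16 (R 4.3.3; trimmed mean of M-values, default expression filter, robust quasi-likelihood, Benjamini-Hochberg over all genes) with genotype alone, genotype and title form, or their interaction. All 8 genes passed the filter. Intervals are at 95%. Log2 CPM for patterns used a prior count of 2. No 2 libraries agreed within sampling noise (lowest chi-square per degree of freedom 17.3). Replicates are numbered in accession order. The same number in both genotypes also has neighbouring title numbers, which the labels do not call a pairing. Alternatives were other normalizations and filters, DESeq2 1.42.0, libraries left out, title form as covariate and neighbouring title numbers as a block. The 8 genes, the lists and the rule for named genes (of each list the called genes, or else those with the smallest p, and for cell type lists the most abundant) were chosen with earlier results of these data known. The results of some genes that this rule names are left out.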

Additional observations from a re-analysis of the deposited data

How the results depend on the processing

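Between genotypes 0 of the 8 genes were called under each alternative run. Genes called over all numbered 9, against 68 in DESeq2, 5 with title form as covariate, 29 with neighbouring title numbers as a replicate block, 18 without both mutant replicate 4 and wild-type replicate 2 (added after the data were seen) and 6 to 14 with single libraries left out (14 without mutant replicate 4). The block called 0 of the 8, with Gap43 at 0.59 (SE 0.14, adjusted p = 0.170, the lowest of its alternatives, against 0.924 without it); deviations of neighbouring libraries correlated at -0.036 to 0.27, against -0.15 to 0.14 for other pairs, so the pairing is assumed.

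Small genotype differences turned sign. Without both of those libraries Ina, Nefh, Nefl and Nefm came to -0.15, -0.16, -0.053 and -0.074, and Nefh to -0.0071 with title form and -0.0033 with the block. With single libraries left out Ina lay between -0.085 and 0.22, Nefh -0.11 and 0.13, Nefl -0.035 and 0.21, Nefm -0.062 and 0.17, Prph -1.57 and 0.25 and Tubb3 -0.21 and 0.065.

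Between title forms 2008 genes were called, 1230 without a filter, 655 without both libraries and 254 to 1640 with single libraries left out (254 without mutant replicate 1, 423 without wild-type replicate 4). Of the 8 genes 3 were called without both libraries and 1 to 5 with single libraries left out. Log2 fold changes of Nefl then lay between -0.60 and -0.53, Nefm -0.65 and -0.55, Nefh -0.68 and -0.57, Ina -0.70 and -0.53 and Tubb3 -0.60 and -0.42. Tubb3 also missed the threshold with total counts (adjusted p = 0.0549) and without a filter (0.0724), against 0.00233 to 0.157 over all its alternatives. Prph came to -0.092 without a genotype term and to between -1.19 and 1.70 with single libraries left out.

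For the interaction 17 genes were called, 136 in DESeq2, 0 without symbols that had 0 counts beside at least 10 (edgeR, 274 at an unadjusted p under 0.05; DESeq2 was not run on that set), and 29 to 58 with single libraries left out, with 0 of the 8 in each. Stmn2 came to 0.035 with total counts. With single libraries left out Gap43 lay between -0.64 and 0.20, Nefh -0.26 and 0.0069, Nefm -0.21 and 0.026, Prph -2.61 and 3.69, Stmn2 -0.26 and 0.19 and Tubb3 -0.28 and 0.14. The causes were not tested. A difference such as that of Prph was not detectable at this spread, although its lowest library held 38 counts.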
